A study of Caenorhabditis elegans with 18 samples.

Results

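The hedgehog-related ground and warthog genes of Caenorhabditis elegans were followed across 2 soils and 3 sampling times. A gene was taken as a member when the platform annotation gave its probe set a single symbol starting with wrt- (warthog), grd- (ground) or grl- (ground-like) followed by a number. This gave 55 members of 25478 named genes on an array of 28387 probe sets, made up of 10 warthog, 14 ground and 31 ground-like genes, each measured by 1 probe set. The RefSeq gene table lists 59 such genes, and grd-4, grd-6, grd-17 and grl-32 were not analysed here.

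Hedgehog-related proteins are secreted proteins that each carry a family-specific domain at the amino end, called Wart, Ground or Ground-like. Several warthog and ground proteins also carry the self-cleaving Hint domain known from hedgehog proteins, whereas ground-like proteins as a rule do not. The worm has no canonical hedgehog protein and no Smoothened, but it has a large group of patched-related (PTR) membrane proteins, and both groups are known for roles in moulting, in the apical matrix of the epidermis, in glia and in the tubes that open through the cuticle.

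Worms of the wild-type strain N2 were grown until they were L4 larvae or young adults and then kept for 48 h at 20 °C in 0.3 g of soil contaminated with cadmium at 310 mg/kg, lead at 2700 mg/kg and zinc at 4200 mg/kg. The treated soil held nZVI, fine particles of zero-valent iron that bind metals, and the control soil held the same metals without it. The groups were nZVI soil and control soil at 0 days, at 14 days and at 4 months, with 3 arrays of whole-worm RNA in each. The labels do not say from what event these times are counted, no group was kept in clean soil, and nothing says that the numbered replicates came from separate cultures, so p-values measure the spread between these samples, which may be technical. In whole-worm RNA, fewer cells of a type and less RNA per cell cannot be told apart.

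Values are log2 signals that the authors had normalised with RMA, so a difference of 1 is a factor of 2. A member is called higher or lower where limma's adjusted p, taken over all 28387 probe sets, was under 0.05. The 18 arrays had medians of 3.85 to 3.99 and correlated at 0.970 to 0.996 within their groups. Of the 55 members, 36 had a mean above 3.93, the median over all probe sets, and 19 were at or below it, where an array measures differences less well.

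3 arrays stood apart from their groups. In nZVI soil at 14 days, array 2 was lower than both other arrays of its group for 47 of the 55 members and higher than both for 3. Arrays 1 and 3 of that group held the highest of the 18 values for 36 members, and array 2 for none. These counts were taken over the members only, and not over all probe sets. Array 2 is thus set apart by the values of the tested members themselves. Leaving it out was bound to raise most of their differences. Results without it, with their p-values, are therefore not separate support for a difference. Controls 1 and 3 of the 4-month group spread less, with interquartile ranges of 3.8 and 3.70, while all other arrays had at least 4.07. Counts of called members that rest on these arrays are given with and without them, as are the member values they move most. For other gene lists, counts at 14 days are given with and without nZVI array 2. List counts at 4 months are given with all arrays only.

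**Figure D1:**
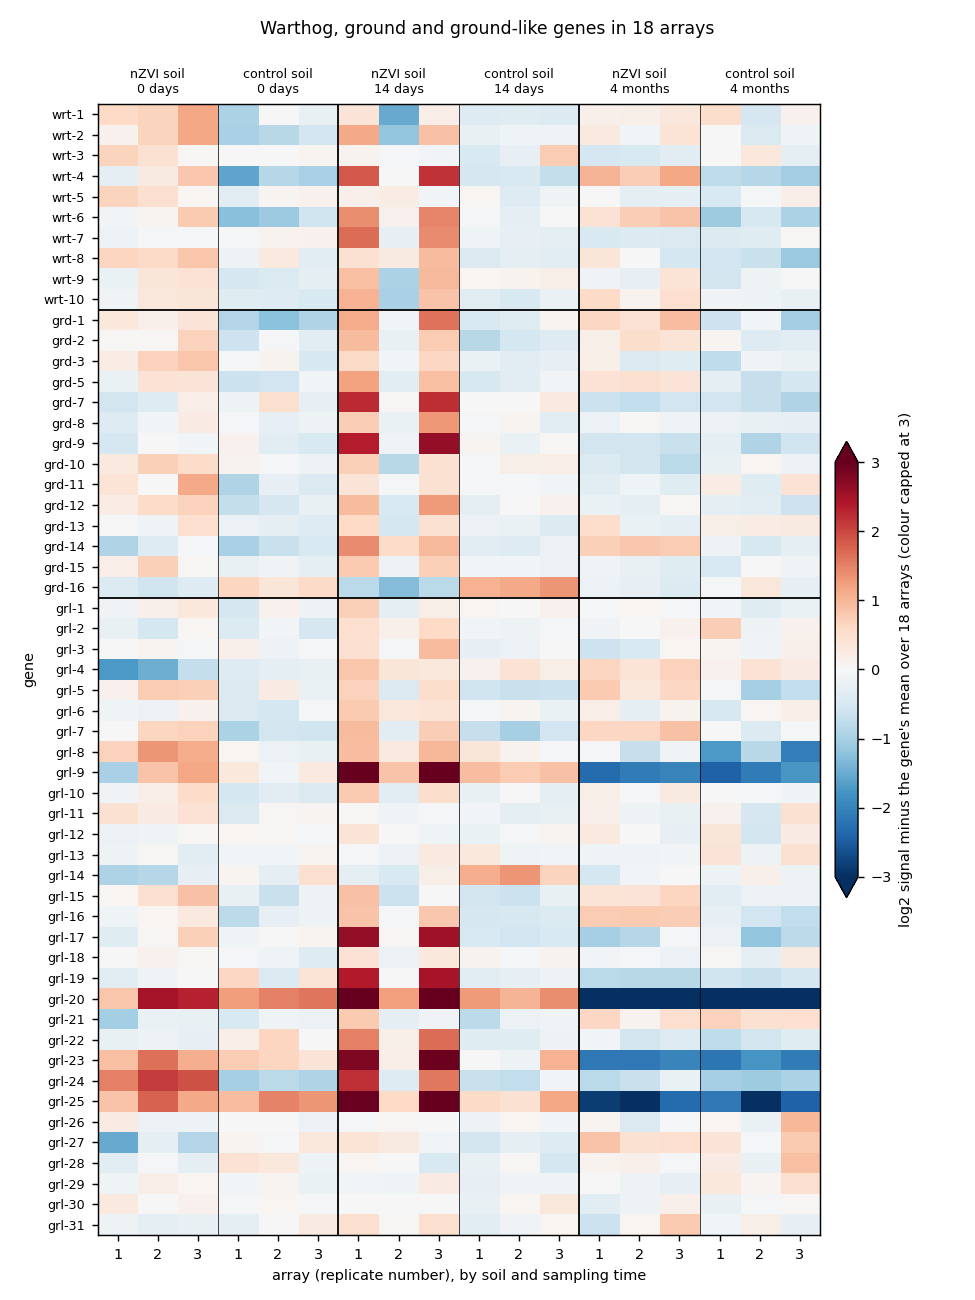
Log2 signal of each of the 55 members (rows, grouped as warthog, ground and ground-like) in each of the 18 arrays (columns, nZVI left of control at each time), drawn as the deviation from the member's own mean over the 18 arrays. Arrays 1 and 3 in nZVI soil at 14 days are high for most members, and grl-20, grl-25, grl-23 and grl-9 are low in all 6 arrays at 4 months.

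Across the groups, 28 of the 55 members had their highest mean in nZVI soil at 14 days, 13 in nZVI soil at 0 days and 6 in nZVI soil at 4 months. Control soil held the highest mean for 6 members at 4 months, for 2 at 14 days and for 0 at 0 days. The group of the highest mean was not counted over all probe sets, so these counts do not set the members apart from other genes. Against the member's own mean, the median deviation over the 55 members was 0.78, -0.09 and 0.71 in the 3 nZVI arrays at 14 days, and -0.21, -0.16 and -0.09 in the controls of that time. The warthog genes gave 0.97, -0.13 and 0.92 in the same nZVI arrays, and -0.28, -0.29 and -0.16 in the controls.

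**Figure D2:**
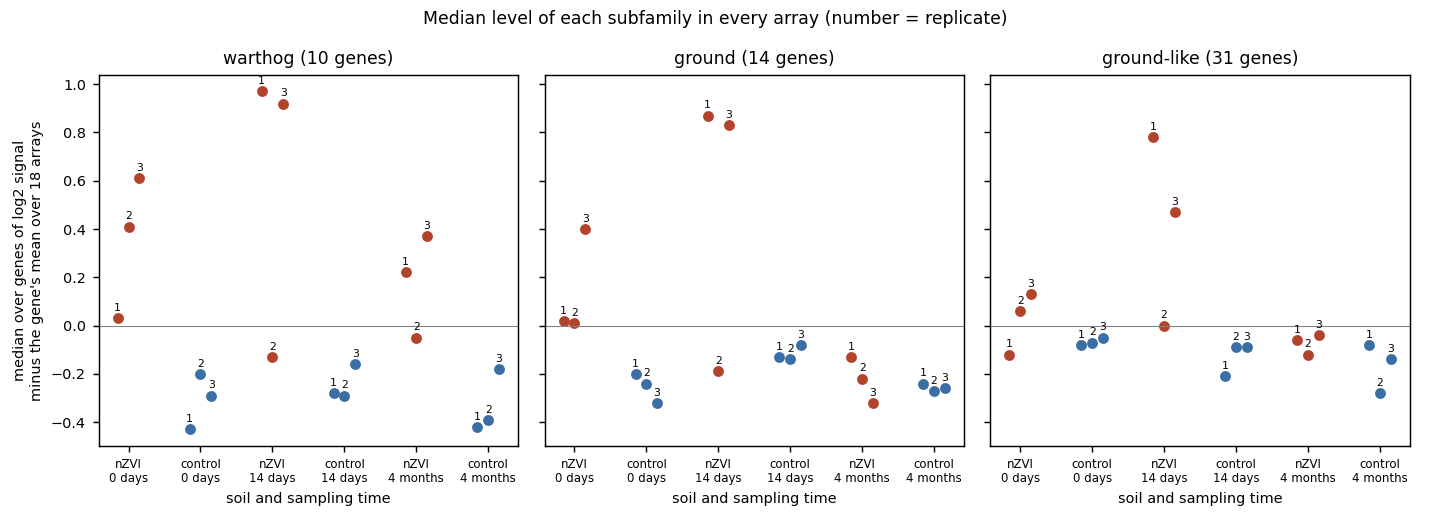
Median deviation (log2) of the members of each subfamily from their own means over 18 arrays, 1 point per array, with nZVI left of control at each time. In nZVI soil at 14 days the warthog medians are 0.97, -0.13 and 0.92, and array 2 lies far below arrays 1 and 3 and just above the control arrays, which run from -0.43 to -0.16.

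At 0 days, 12 members were higher and 4 lower in nZVI soil than in control soil. That is 29.1% of the members, where 16% of all probe sets were called. The median difference of the members was 0.36, against -0.01 over all probe sets. At 14 days, 18 members were higher and 2 lower, 36.4% of the members against 8.99% of all probe sets, with a median difference of 0.59 against 0.04. At 4 months, 7 members were higher and 0 lower, 12.7% of the members against 7.08% of all probe sets, with a median of 0.08 against -0.03, and 13 members had an unadjusted p under 0.05.

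The warthog genes had 5 of 10 members higher at 0 days, 4 at 14 days (7 without nZVI array 2) and 2 at 4 months, and 0 lower at any time. At 0 days the 5 were wrt-1, wrt-2, wrt-4, wrt-6 and wrt-8, and all 5 calls were lost when some single array was left out. Of these, wrt-4 and wrt-6 were called at all 3 times.

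At 0 days wrt-4 had log2 signals of 7.41, 7.99 and 8.53 in nZVI soil, against 6.13, 6.86 and 6.74 in control soil. At 14 days it had 9.56, 7.72 and 9.89 in nZVI soil, against 7.20, 7.25 and 7.00 in control soil. At 4 months it had 8.73, 8.45 and 8.88 in nZVI soil, against 6.94, 6.85 and 6.68 in control soil. The 2 soils did not overlap at any time, although array 2 at 14 days lay close above its controls. The differences were 1.40 ± 0.40 at 0 days (SE, limma adjusted p = 0.0242), 1.91 ± 0.40 at 14 days (adjusted p = 0.00488) and 1.86 ± 0.40 at 4 months (adjusted p = 0.00944). Without nZVI array 2 the difference at 14 days was 2.58 ± 0.27 (adjusted p = 1.08e-05). The call at 0 days held in 3 of 6 fits that each left out 1 array, and the calls at 14 days and 4 months held in 6 of 6.

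At 0 days wrt-6 had 6.39, 6.54 and 7.25 in nZVI soil, against 5.21, 5.37 and 5.87 in control soil. At 14 days it had 7.86, 6.60 and 7.92 in nZVI soil, against 6.43, 6.17 and 6.46 in control soil. At 4 months it had 6.91, 7.21 and 7.33 in nZVI soil, against 5.39, 5.98 and 5.51 in control soil. Here too the soils did not overlap, with nZVI array 2 at 14 days just above the highest control. The differences were 1.24 ± 0.30 (SE, limma adjusted p = 0.00989), 1.11 ± 0.30 (adjusted p = 0.0284) and 1.52 ± 0.30 (adjusted p = 0.00596) at 0 days, 14 days and 4 months. The call at 14 days held in only 1 of 6 fits that each left out 1 array.

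Of the other warthog genes, wrt-2, whose promoter is widely used to drive expression in epidermal cells, had 8.0, 8.52 and 9.01 in nZVI soil at 0 days, against 6.89, 7.03 and 7.28 in control soil. Its difference was 1.45 ± 0.41 (SE, limma adjusted p = 0.0236), with no overlap. At 0 days wrt-1 had 7.52, 7.60 and 8.08 in nZVI soil, against 5.98, 6.91 and 6.71 in control soil, a difference of 1.20 ± 0.38 (limma adjusted p = 0.0386). At 14 days wrt-1 had 7.31, 5.42 and 7.12 in nZVI soil, against 6.53, 6.56 and 6.52 in control soil, so that array 2 lay more than 1 log2 unit below every control. wrt-8, which takes part in axon guidance, was higher at 0 days by 0.74 ± 0.23 (limma adjusted p = 0.0349) and at 14 days by 0.91 ± 0.23 (adjusted p = 0.0159). wrt-7 was called at 14 days only, from 4.70, 2.79 and 4.44 in nZVI soil against 2.90, 2.79 and 2.74 in control soil, so its groups overlapped, and the difference was 1.76 ± 0.15 without array 2. The 14-day calls of wrt-7 and wrt-8 were each lost when some single array other than nZVI array 2 was left out. With all arrays, wrt-3, wrt-5, wrt-9 and wrt-10 were called in no soil comparison.

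**Figure D3:**
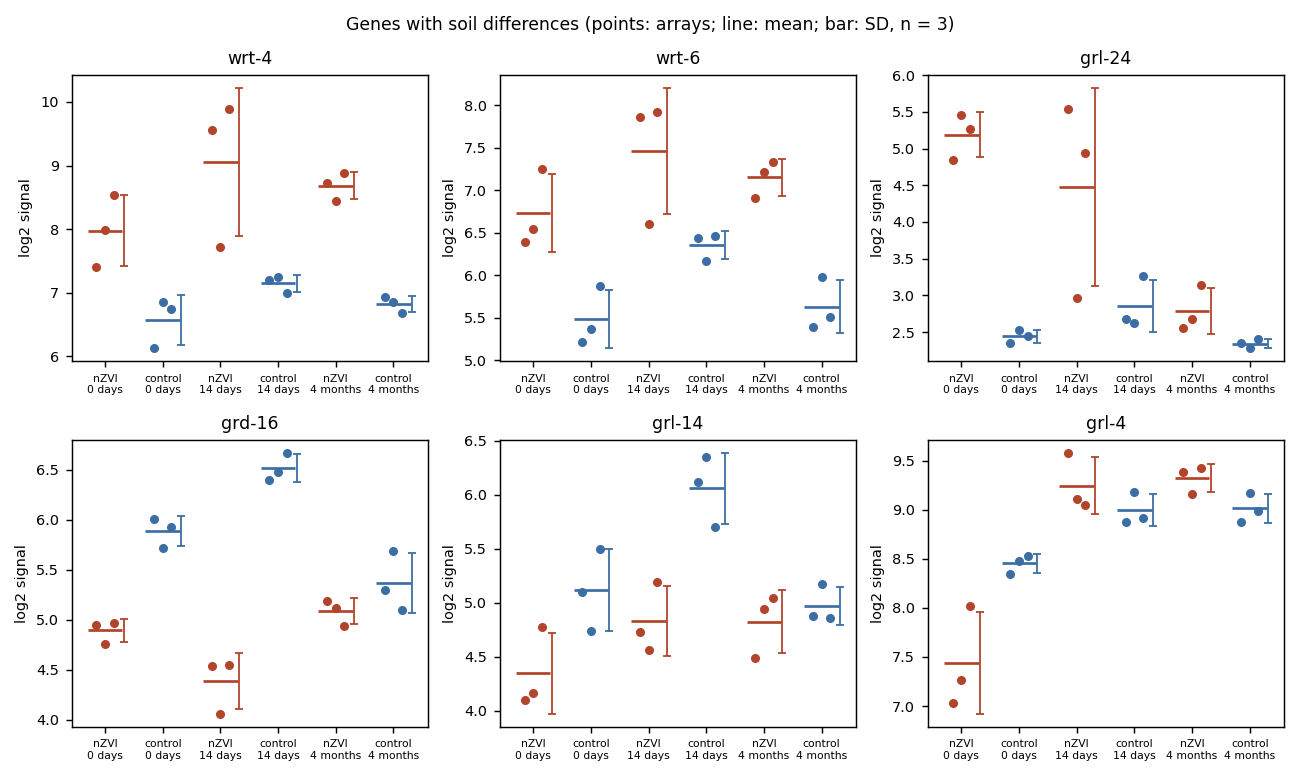
Log2 signal of wrt-4, wrt-6, grl-24, grd-16, grl-14 and grl-4 in every array, nZVI left of control at each time, with the group means. wrt-4 and wrt-6 are higher in nZVI soil at all 3 times, grd-16 is lowest in nZVI soil at 14 days, where its values of 4.06 to 4.55 lie below controls of 6.40 to 6.67, and grl-4 is lowest in nZVI soil at 0 days.

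The ground genes had 4 of 14 members higher and 1 lower at 0 days, 5 higher and 1 lower at 14 days (11 and 1 without nZVI array 2), and 2 higher and 0 lower at 4 months. At 0 days grd-1 had 6.17, 6.01 and 6.24 in nZVI soil, against 4.96, 4.62 and 4.95 in control soil. At 14 days it had 6.95, 5.76 and 7.48 in nZVI soil, against 5.38, 5.49 and 5.94 in control soil. At 4 months it had 6.46, 6.29 and 6.77 in nZVI soil, against 5.22, 5.76 and 4.82 in control soil. The groups were clearly apart at 0 days and 4 months and overlapped at 14 days through array 2. The differences were 1.29 ± 0.32 (SE, limma adjusted p = 0.0108), 1.13 ± 0.32 (adjusted p = 0.0345) and 1.24 ± 0.32 (adjusted p = 0.0267) in that order of times. With 1 array left out the calls held in 6, 2 and 1 of 6 fits.

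grd-14 was higher at 14 days and 4 months. It had 5.94, 5.07 and 5.50 in nZVI soil at 14 days, against 4.21, 4.13 and 4.36 in control soil. At 4 months it had 5.25, 5.34 and 5.28 in nZVI soil, against 4.38, 4.05 and 4.26 in control soil. Neither time showed overlap, and the differences of 1.27 ± 0.22 (SE, limma adjusted p = 0.00106) and 1.06 ± 0.22 (adjusted p = 0.00727) held in every fit with 1 array left out. At 0 days its values of 3.63, 4.13 and 4.50 in nZVI soil overlapped those of 3.56, 3.85 and 4.07 in control soil.

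grd-16 went the other way. At 0 days it had 4.95, 4.76 and 4.97 in nZVI soil, against 6.01, 5.72 and 5.93 in control soil. At 14 days it had 4.54, 4.06 and 4.55 in nZVI soil, against 6.40, 6.48 and 6.67 in control soil. The soils were far apart at both times, and at 14 days array 2 lay on the same side as arrays 1 and 3. At 0 days the difference was -0.99 ± 0.17 (SE, limma adjusted p = 0.000661), and at 14 days it was -2.13 ± 0.17 (adjusted p = 1.21e-06), 4.39-fold lower in nZVI soil. At 4 months the values of 5.19, 5.12 and 4.94 in nZVI soil overlapped those of 5.30, 5.69 and 5.10 in control soil, with a difference of -0.28 and a 95% interval of -0.64 to 0.08.

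With all arrays, the other ground genes with a call had it at a single time. At 0 days grd-11, grd-12 and grd-3 were higher by 1.04 ± 0.26, 0.97 ± 0.31 and 0.73 ± 0.24 (SE), each without overlap. Each of these calls was lost when some single array was left out. Without nZVI array 2, grd-12 and grd-3 were also higher at 14 days, by 1.18 ± 0.19 and 0.85 ± 0.24 (limma adjusted p = 0.000671 and 0.0304), and grd-11 was not called. At 14 days grd-2 had 5.62, 4.45 and 5.43 in nZVI soil, against 3.83, 4.13 and 4.28 in control soil, a difference of 1.09 ± 0.26 (limma adjusted p = 0.0139) without overlap. grd-7 had 6.02, 3.81 and 6.0 in nZVI soil at 14 days, against 3.78, 3.8 and 4.09 in control soil, and grd-9 had 6.03, 3.57 and 6.32, against 3.76, 3.47 and 3.72. For both genes array 2 lay within the controls while arrays 1 and 3 lay about 2 log2 units above them. The differences over all 3 arrays were 1.39 ± 0.40 for grd-7 and 1.66 ± 0.46 for grd-9, and without array 2 they were 2.12 ± 0.22 and 2.53 ± 0.21. With all arrays, the 14-day calls of grd-2, grd-7 and grd-9 were each lost when some other single array was left out.

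The ground-like genes had 3 of 31 members higher and 3 lower at 0 days, 9 higher and 1 lower at 14 days (14 and 1 without nZVI array 2), and 3 higher and 0 lower at 4 months. With all arrays, the widest soil difference of any member was that of grl-24 at 0 days (without nZVI array 2, grl-17 and grl-9 at 14 days were wider), with 4.85, 5.45 and 5.27 in nZVI soil, against 2.35, 2.53 and 2.44 in control soil. The soils did not overlap, and the difference was 2.75 ± 0.42 (SE, limma adjusted p = 0.000237), 6.71-fold higher in nZVI soil. At 14 days grl-24 had 5.54, 2.96 and 4.94 in nZVI soil, against 2.68, 2.62 and 3.26 in control soil. Array 2 fell within the controls, and the difference was 1.63 ± 0.42 (adjusted p = 0.0202) with all arrays and 2.39 ± 0.23 (adjusted p = 7.1e-06) without array 2. The 14-day call with all arrays was lost when some other single array was left out. At 4 months grl-24 had 2.55, 2.68 and 3.14 in nZVI soil, against 2.35, 2.28 and 2.40 in control soil, and was not called.

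Also at 0 days, grl-8 had 6.74, 7.39 and 7.17 in nZVI soil, against 6.12, 5.89 and 5.84 in control soil. grl-7 had 7.64, 8.30 and 8.35 in nZVI soil at that time, against 6.71, 7.11 and 7.06 in control soil. Neither overlapped, and the differences of 1.15 ± 0.28 (SE, limma adjusted p = 0.00913) for grl-8 and 1.14 ± 0.27 (adjusted p = 0.00793) for grl-7 held in every fit with 1 array left out. At 14 days grl-7 had 8.6, 7.31 and 8.39 in nZVI soil, against 6.96, 6.66 and 7.07 in control soil, and it was higher again by 1.20 ± 0.27 (adjusted p = 0.00794). grl-8 was higher again at 4 months by 1.26 ± 0.28 (adjusted p = 0.0114). At 4 months grl-8 had 6.0, 5.36 and 5.95 in nZVI soil, against 4.33, 5.23 and 3.97 in control soil, where the highest control was array 2.

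The 3 ground-like genes lower at 0 days were grl-4, grl-27 and grl-14. grl-4 had 7.03, 7.27 and 8.02 in nZVI soil, against 8.35, 8.48 and 8.53 in control soil, a difference of -1.02 ± 0.21 (SE, limma adjusted p = 0.0028). grl-27 had 3.05, 4.26 and 3.69 in nZVI soil, against 4.65, 4.51 and 4.89 in control soil, a difference of -1.01 ± 0.26 (adjusted p = 0.0117). Neither of these overlapped. grl-14 had 4.10, 4.16 and 4.77 in nZVI soil, against 5.10, 4.74 and 5.50 in control soil, with a slight overlap and a difference of -0.77 ± 0.24 (adjusted p = 0.0376). Only grl-14 was lower again at 14 days, with 4.73, 4.56 and 5.19 in nZVI soil, against 6.12, 6.35 and 5.70 in control soil. That difference, -1.23 ± 0.24 (adjusted p = 0.00284), held in every fit with 1 array left out.

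At 14 days grl-17 had 6.66, 4.06 and 6.58 in nZVI soil, against 3.57, 3.45 and 3.58 in control soil. grl-19 had 5.65, 3.27 and 5.73 in nZVI soil, against 2.93, 3.02 and 3.12 in control soil. grl-22 had 6.47, 5.13 and 6.64 in nZVI soil, against 4.60, 4.60 and 4.80 in control soil. For all 3 genes array 2 lay above the controls but well below arrays 1 and 3. The differences were 2.23 ± 0.49 for grl-17 (SE, limma adjusted p = 0.0073), 1.86 ± 0.43 for grl-19 (adjusted p = 0.0105) and 1.41 ± 0.28 for grl-22 (adjusted p = 0.00333), and without array 2 they were 3.09 ± 0.31, 2.67 ± 0.22 and 1.89 ± 0.19. grl-9, grl-20 and grl-23 were higher by 1.99 ± 0.60, 1.79 ± 0.52 and 1.68 ± 0.50, and each had array 2 within its controls. Without array 2 these were 2.99 ± 0.41, 2.69 ± 0.34 and 2.57 ± 0.29. With all arrays, the calls of grl-9, grl-20, grl-23, grl-17 and grl-19 were each lost when some other single array was left out.

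grl-16, which like wrt-8 is known from axon guidance, was higher at both later times. At 14 days it had 9.11, 8.24 and 9.08 in nZVI soil, against 7.77, 7.79 and 7.85 in control soil. At 4 months it had 9.03, 9.05 and 9.01 in nZVI soil, against 8.01, 7.69 and 7.53 in control soil. The 3 nZVI arrays at 4 months lay within 0.04 of each other, and the differences of 1.01 ± 0.22 (SE, limma adjusted p = 0.00562) and 1.29 ± 0.22 (adjusted p = 0.00198) held in every fit with 1 array left out. With all arrays, grl-5 was called at 4 months only, with 6.37, 5.9 and 6.2 in nZVI soil, against 5.53, 4.57 and 4.83 in control soil. That difference, 1.18 ± 0.29 (adjusted p = 0.0188), was without overlap, and its call held in 3 of 6 fits with 1 array left out. Without nZVI array 2 at 14 days, grl-5 was higher at that time too, by 1.25 ± 0.26 (adjusted p = 0.00447).

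**Figure D4:**
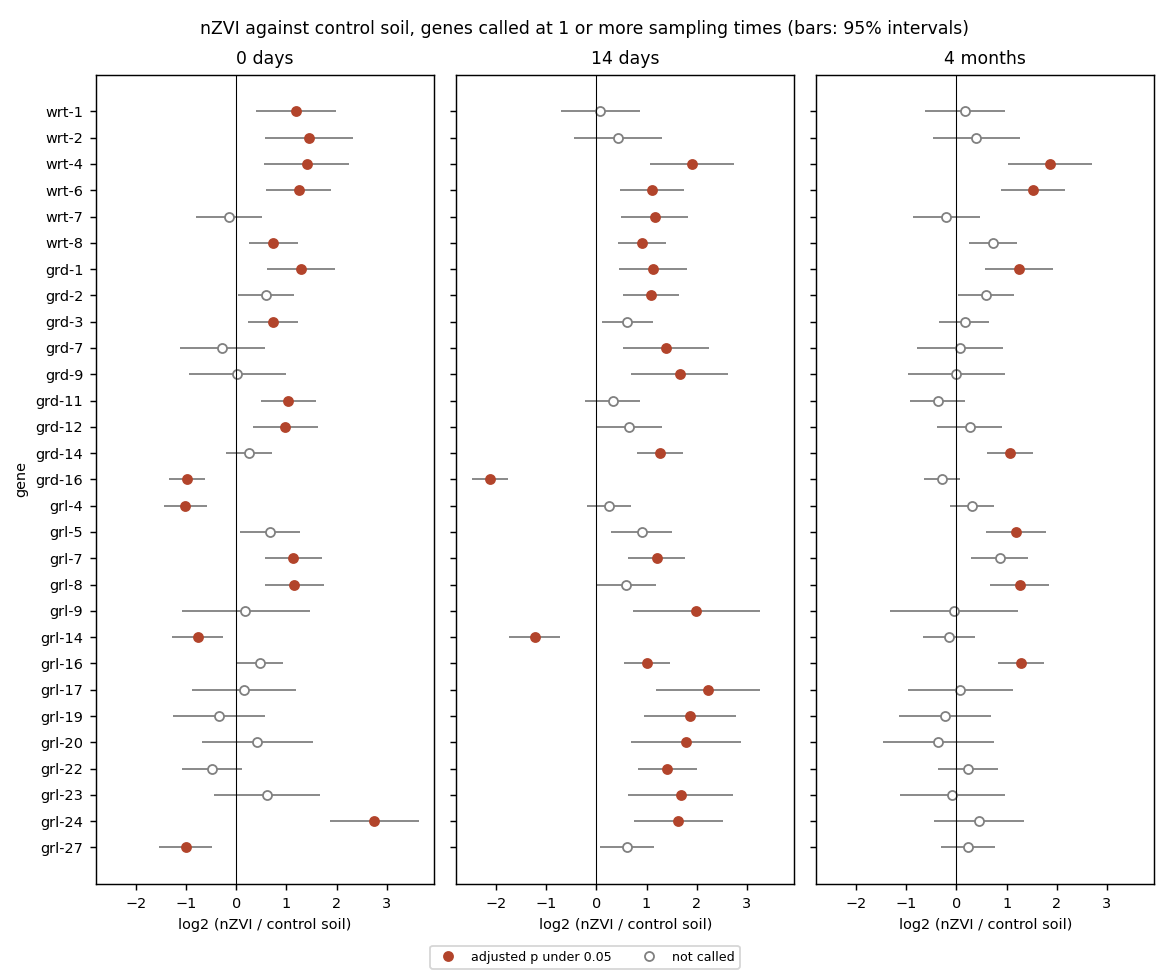
Log2 difference, nZVI minus control, of the 29 members called at 1 or more times, at 0 days, 14 days and 4 months, with 95% intervals from limma. Filled symbols passed an adjusted p under 0.05. The points lie mostly right of 0 at 14 days, where 27 of these 29 are above 0, and nearer to 0 at 4 months, where 20 are above it. The members were chosen for their calls, so the plot describes them and does not stand for all 55.

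The 14-day result was also looked at array by array and with arrays left out. Above all 3 controls lay 49 members in nZVI array 1, 16 in array 2 and 45 in array 3, and below all 3 lay 2, 14 and 2. These positions were not counted over all probe sets, so they compare the arrays and do not set the members apart from other genes. Without array 2, 32 members were higher and 2 lower, against 9.91% of all probe sets called. All 20 earlier calls were among these 34. Array 2 was set apart by these same members, so the added calls are not separate support. The 14 added members, all higher, included grl-25 with 2.33 ± 0.37, grd-5 with 1.35 ± 0.22, wrt-10 with 1.28 ± 0.17 and wrt-2 with 1.16 ± 0.24 (SE; limma adjusted p = 0.000512, 0.000533, 0.000106 and 0.00362). Leaving out nZVI array 1 or 3 instead left 7 or 8 called members, and leaving out control 1 or 2 left 9 or 11. For these fits the share of all probe sets called is not given here, so a loss common to all genes cannot be told apart.

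Array 2 differed from arrays 1 and 3 in other gene lists as well. The log2 of the summed signals of the moulting regulators was 12.53 in array 2, and 13.50 and 13.65 in arrays 1 and 3. The moulting proteins of the apical matrix gave 12.50, against 13.49 and 13.54, and the collagens of the cuticle furrows 8.46, against 10.01 and 9.92. Germline markers gave 13.21 in array 2, against 12.67 and 12.63 in arrays 1 and 3, and oocyte and eggshell markers 15.14, against 14.65 and 14.63. Adult cuticle collagens lay close together at 11.21, against 11.35 and 11.39. The part of these differences in the result was not tested.

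The counts at 0 days and 4 months also changed when single arrays were left out. At 0 days, 6 members were called in every fit with 1 array left out, namely grl-24, grd-1, grl-8, grl-7, grl-4 and grd-16, and the count fell to 7 without control 1, to 9 without nZVI array 2 and to 8 without nZVI array 3. At 4 months the count was 4 without control 3 (against 2.72% of all probe sets), 5 without control 1 (against 3.42%) and 11 without control 2. For that last fit, and for those at 0 days, the share of all probe sets is not given here. A change common to all genes cannot be told apart in them. Without both controls of narrow range, which leaves 1 control array assumed to vary like the other groups, limma called 0 members, against 0.655% of all probe sets, and 10 had an unadjusted p under 0.05. The differences of the 7 members called with all arrays were then 1.84 for wrt-4, 1.17 for wrt-6, 0.75 for grd-1, 1.24 for grd-14, 1.34 for grl-16, 1.58 for grl-5 and 0.54 for grl-8, all above 0, with adjusted p from 0.0617 to 0.729. With the replicate number as a block, 10 members were called at 4 months, against 9.06% of all probe sets.

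Over the 3 soil comparisons, 24 members were above 0 every time, 3 below 0 every time and 28 mixed. Such signs were not counted over all probe sets. Only wrt-4, wrt-6 and grd-1 were called at all 3 times. 26 members were called at none, and 13 of these were among the 19 dimmer members. Their differences ran from -0.48 to 1.51, and the highest bound of their 95% intervals was 2.60. The uncalled members included grl-2, a marker of the excretory duct and pore cells, with differences of -0.24 to 0.52, and grl-18, a marker of glia, with -0.10 to 0.25. They also included some of the brighter probe sets, such as wrt-9 with 0.21 to 0.61 and grd-5 with 0.65 to 0.94. Without nZVI array 2 both were called at 14 days, wrt-9 with 0.83 ± 0.22 (SE, limma adjusted p = 0.0207). By mean over the 18 arrays, the 5 brightest probe sets of the family were those of grl-4, grd-5, wrt-9, grl-16 and grl-20, at 8.74, 8.72, 8.64, 8.26 and 8.24. Over single arrays grl-20 ran widest of these, from 4.09 to 12.24, and grd-5 ran from 8.03 to 9.94. The 5 dimmest were grl-29, grl-13, grl-11, grl-3 and grl-30, with means of 2.46 to 2.92 and no array above 3.68. Signals of different probe sets are not levels of expression relative to each other.

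Between sampling times, the widest differences were falls of 4 ground-like genes at 4 months, in both soils. Signals are given in the order 0 days, 14 days and 4 months. grl-20 in nZVI soil had 9.07, 10.74 and 10.54, then 12.24, 9.47 and 12.07, then 4.57, 4.09 and 4.15. In control soil it had 9.5, 9.74 and 9.84, then 9.51, 9.27 and 9.63, then 4.64, 4.48 and 4.76. All 6 arrays at 4 months lay at least 4 log2 units below every earlier array, and at 4 months the ranges of the 2 soils overlapped slightly. Against 14 days, grl-20 fell at 4 months by 6.99 ± 0.52 in nZVI soil (SE, limma adjusted p = 8.64e-07) and by 4.84 ± 0.52 in control soil (adjusted p = 2.89e-05), rank 1 of 28387 among all falls in each soil.

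grl-25 in nZVI soil had 7.45, 8.37 and 7.73, then 9.56, 7.20 and 9.75, then 3.75, 3.47 and 4.28. In control soil it had 7.51, 8.08 and 7.92, then 7.16, 7.05 and 7.76, then 4.45, 3.00 and 4.16. Its lowest earlier array, 7.05, was far above its highest at 4 months, 4.45. Against 14 days it fell by 5.00 ± 0.51 in nZVI soil (SE, limma adjusted p = 1.91e-05) and by 3.45 ± 0.51 in control soil (adjusted p = 0.00037). Against 0 days it fell by 4.02 in nZVI soil and by 3.97 in control soil.

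grl-23 at 4 months had 3.03, 3.03 and 3.19 in nZVI soil and 3.00, 3.41 and 3.08 in control soil, where its earlier arrays ran from 5.01 to 8.12. In nZVI soil these were 6.07, 6.82 and 6.27 at 0 days and 7.96, 5.37 and 8.12 at 14 days, and in control soil 5.94, 5.82 and 5.56, then 5.18, 5.01 and 6.21. Against 0 days it fell by 3.30 ± 0.50 in nZVI soil (SE, limma adjusted p = 0.000184) and by 2.61 ± 0.50 in control soil (adjusted p = 0.00326). grl-9 at 4 months had 3.65, 3.87 and 3.95 in nZVI soil and 3.53, 3.87 and 4.21 in control soil, where its earlier arrays ran from 4.98 to 9.85. In nZVI soil these were 4.98, 6.83 and 7.13 at 0 days and 9.79, 6.82 and 9.85 at 14 days, and in control soil 6.27, 5.87 and 6.25, then 6.9, 6.72 and 6.85. Against 0 days it fell by 2.48 ± 0.60 in nZVI soil (adjusted p = 0.00663) and by 2.26 ± 0.60 in control soil (adjusted p = 0.0254). The grl-9 call against 0 days in control soil was lost in 5 of 6 fits with 1 array left out, and the other comparisons of 4 months for these 4 genes were called in every one. Without both narrow controls, the falls in control soil were still called for grl-20 and grl-25, and no longer for grl-23 and grl-9. The falls against 14 days share their 4-month arrays with the falls against 0 days.

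**Figure D5:**
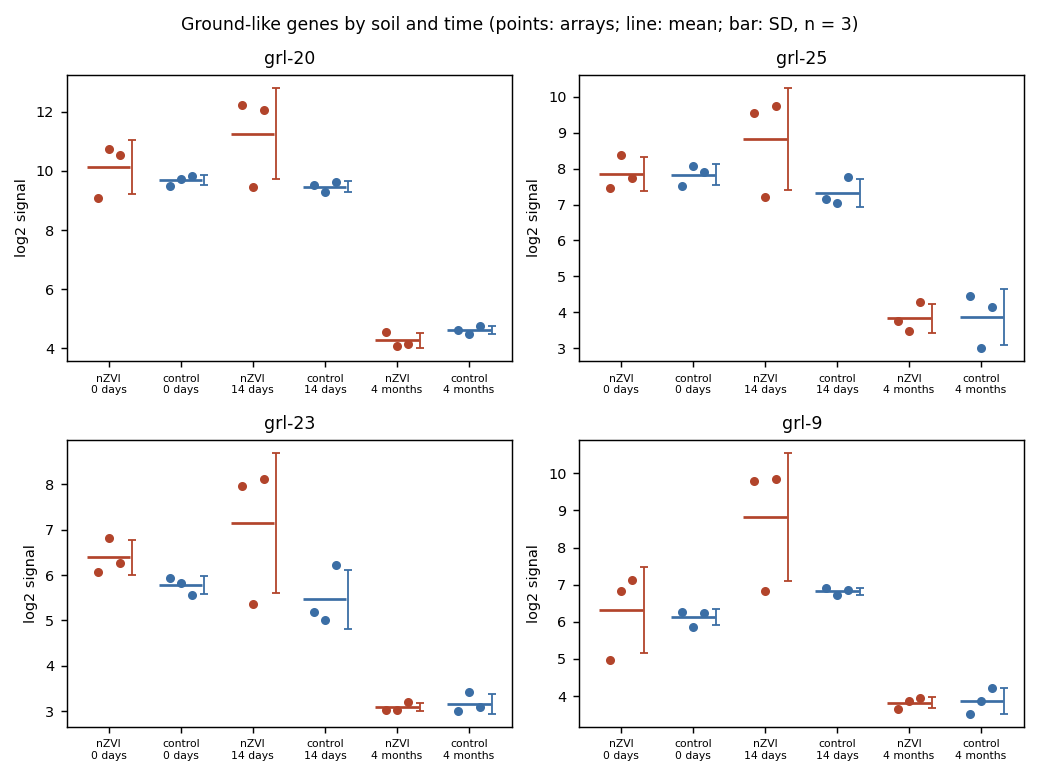
Log2 signal of grl-20, grl-25, grl-23 and grl-9 in every array at 0 days, 14 days and 4 months, nZVI left of control, with the group means. All 6 arrays at 4 months lie below all 12 earlier arrays for each gene, and for grl-20 they run from 4.09 to 4.76.

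In nZVI soil, 5 members were higher and 12 lower at 4 months than at 0 days, against 22.2% of all probe sets called. At 4 months against 14 days, 1 was higher and 13 lower, against 8.53%, and without nZVI 14-day array 2 the counts were 1 and 23, against 16.1%. Besides the 4 genes above, grl-24 fell at 4 months by 2.40 ± 0.42 against 0 days in nZVI soil (SE, limma adjusted p = 0.000652), and by 0.10 in control soil, where it was not called and was low at all times. grl-4 rose in nZVI soil by 1.81 ± 0.21 at 14 days (adjusted p = 4.65e-05) and by 1.89 ± 0.21 at 4 months (adjusted p = 7.87e-06), both against 0 days. Its nZVI arrays had 9.58, 9.11 and 9.05 at 14 days and 9.38, 9.16 and 9.43 at 4 months, all above its highest nZVI array at 0 days, 8.02. grl-27 rose by 1.10 ± 0.26 and 1.49 ± 0.26 over the same comparisons, with 4.97, 4.84 and 4.49 at 14 days and 5.42, 5.01 and 5.07 at 4 months in nZVI soil, and grd-14 rose by 1.42 ± 0.22 and 1.20 ± 0.22. grl-22 rose by 1.33 ± 0.28 at 14 days against 0 days (adjusted p = 0.0066), where its nZVI arrays at 0 days had 4.73, 4.82 and 4.71. grl-21 rose by 0.89 ± 0.27 at 4 months against 0 days (adjusted p = 0.0238), with 8.03, 7.52 and 7.91 at 4 months and 6.38, 7.22 and 7.18 at 0 days.

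At 14 days against 0 days in nZVI soil, 8 members were higher and 0 lower, against 8.80% of all probe sets called, and without array 2 at 14 days 22 were higher, against 7.78%. In control soil the same comparison called 2 higher members, grl-14 and grd-16, and 0 lower, against 11.9% of all probe sets. Both calls were lost without some single array. At 4 months against 0 days in control soil, 0 members were higher and 5 lower, against 9.71%, namely grl-20, grl-25, grl-23, grl-9 and grl-8, and without the narrow controls only grl-20 and grl-25 were called, against 2.7%. At 4 months against 14 days, 3 were higher and 7 lower in control soil, against 20.9%, and without the narrow controls only grl-20 and grl-25 were called, both lower, against 1.17%. The 3 were grl-21, grl-27 and grl-29, higher by 0.92 ± 0.27, 0.78 ± 0.26 and 0.45 ± 0.15 (SE), and each call was lost in at least 3 of 6 fits with 1 array left out. grl-21 had 8.11, 7.86 and 7.92 in control soil at 4 months, against 6.62, 7.23 and 7.29 at 14 days. grl-27 had 4.96, 4.5 and 5.34, against 4.01, 4.27 and 4.18, and grl-29 had 2.77, 2.55 and 2.95, against 2.21, 2.37 and 2.34, over the same arrays. grd-16 and grl-14 were among the 7, at -1.15 ± 0.17 and -1.09 ± 0.24 (SE; limma adjusted p = 0.000349 and 0.00565).

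Markers of tissues moved with time too. Of 8 pharynx markers, 0 were higher and 5 lower at 4 months than at 0 days in nZVI soil, and 0 and 4 in control soil. Their summed log2 signal was 10.84 to 10.88 at 4 months and 11.75 to 12.10 at 0 days in nZVI soil. In control soil it was 9.99 to 10.79 at 4 months and 10.95 to 11.25 at 0 days. Of 12 germline markers, 12 were higher at 4 months than at 0 days in nZVI soil, and 1 in control soil. That comparison called 22.2% of all probe sets in nZVI soil and 9.71% in control soil. Other markers moved in nZVI soil too, with 7 of 12 oocyte and eggshell, 4 of 5 yolk, 5 of 8 muscle and 3 of 10 sperm markers higher and 0 lower. Of 8 neuron markers 0 were higher and 3 lower. Epidermis had 1 of 10 higher and 0 lower, and glia, intestine and embryo markers had 0 called. The part of these in the falls of the ground-like genes was not tested.

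Whether the soil difference itself changed with time was tested as an interaction. With all arrays, between 14 days and 0 days 4 members were called, against 1.05% of all probe sets, between 4 months and 0 days 3, against 4.32%, and between 4 months and 14 days 1, against 1.36%. Without nZVI array 2 at 14 days, 10 were called upward between 14 days and 0 days, against 1.12%. Between 4 months and 14 days that fit called 1 upward and 13 downward, against 1.99%. The soil difference of grl-4 was -1.02 at 0 days and 0.31 at 4 months, and that of grd-16 was -2.13 at 14 days and -0.28 at 4 months. These changes, 1.33 ± 0.29 for grl-4 (SE, limma adjusted p = 0.0171) and 1.85 ± 0.24 for grd-16 (adjusted p = 0.0032), were called in all 12 fits with 1 array left out. Without both narrow controls they were 1.17 (adjusted p = 0.164) and 1.53 (adjusted p = 0.0669), and neither comparison called any member, with 11 members at an unadjusted p under 0.05 for 4 months against 0 days and 6 for 4 months against 14 days. The other 6 calls made with all arrays held in 2 to 5 of 12. Among them grd-11 had 3.98, 3.55 and 4.7 in nZVI soil at 0 days, against 2.66, 3.32 and 3.12 in control soil, and 3.23, 3.43 and 3.19 in nZVI soil at 4 months, against 3.79, 3.19 and 3.99 in control soil.

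Patched and patched-related proteins are the candidate membrane partners of the family. Of 30 such genes, which here also take in che-14, daf-6 and ptd-2, 10 were higher and 4 lower in nZVI soil at 0 days, 3 and 4 at 14 days (9 and 4 without nZVI array 2), and 4 and 0 at 4 months. At 0 days ptr-3 was higher by 2.23 ± 0.32 (SE, limma adjusted p = 0.000115), ptr-20 by 1.5 ± 0.16 (adjusted p = 5.19e-06) and ptc-3 by 1.20 ± 0.18 (adjusted p = 0.00017). ptr-17 was lower, with differences of -1.39 ± 0.24 at 0 days (adjusted p = 0.000754) and -1.89 ± 0.24 at 14 days (adjusted p = 6.97e-05). ptc-3, one of the worm's patched proteins, and ptr-20 were higher at all 3 times. ptc-1, the patched protein known from the germline, was lower at 0 days, with a difference of -0.62 ± 0.14 (adjusted p = 0.00579).

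The other Hint-domain genes, hog-1 and qua-1, were called at 4 months only with all arrays, and at 14 days too without nZVI array 2. At 4 months hog-1 was higher in nZVI soil by 1.28 ± 0.30 (SE, limma adjusted p = 0.0165) and qua-1 by 1.75 ± 0.28 (adjusted p = 0.00119). At 0 days their differences were 0.15 and 0.23, and at 14 days 0.54 and 0.86.

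Of 20 moulting regulators, 8 were higher and 0 lower in nZVI soil at 0 days, 0 and 0 at 14 days (6 and 0 without nZVI array 2), and 2 and 0 at 4 months. Examples at 0 days were elt-3, an epidermal GATA factor, at 1.17 ± 0.19 (SE, limma adjusted p = 0.000343) and blmp-1 at 1.23 ± 0.38 (adjusted p = 0.0364). Of 21 moulting proteins of the apical matrix, 11 were higher at 0 days, 1 at 14 days (12 without nZVI array 2) and 5 at 4 months, with 0 lower. They included mlt-11, a protease inhibitor, at 1.36 ± 0.30 at 0 days (adjusted p = 0.00441), and mlt-10 at 1.49 ± 0.28 at 4 months (adjusted p = 0.00414). Of 171 cuticle collagens, 9 were higher and 25 lower at 0 days, 94 and 0 at 14 days, and 55 and 0 at 4 months. Without nZVI array 2 the counts at 14 days were 116 and 0. Of 8 adult cuticle collagens, which are among the 171, 0 were higher and 3 lower at 0 days. At 14 days 7 were higher and 0 lower, with or without nZVI array 2, and at 4 months 5 and 0.

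Markers of tissues were read beside the family. Of 10 epidermis markers, 5 were higher and 1 lower at 0 days, 0 and 1 at 14 days, and 1 and 0 at 4 months. Of these markers 6 (che-14, dpy-7, elt-3, grh-1, nhr-23 and nhr-25) are also in the lists above, so their counts are not separate from those. The summed log2 signal of the 10 epidermis markers at 0 days was 11.75 to 12.05 in nZVI soil, against 11.35 to 11.64 in control soil. At 14 days it was 11.80 to 12.22 in nZVI soil, against 12.04 to 12.11 in control soil. The soils were apart at 0 days. At 14 days nZVI array 2 held the lowest sum and arrays 1 and 3, with 12.13 and 12.22, lay above all 3 controls, and without array 2 the counts were 2 higher and 1 lower. Of 10 glia markers, 3 were higher at 0 days, 0 at 14 days (1 without nZVI array 2) and 1 at 4 months. Of 7 intestine markers, 5 were higher at 0 days, 2 at 14 days (3 without nZVI array 2) and 3 at 4 months. The intestine sum at 0 days was 12.05 to 12.27 in nZVI soil, against 11.44 to 11.72 in control soil. Of 8 pharynx markers, 4 were higher at 0 days, 0 higher and 1 lower at 14 days, and 2 higher at 4 months. Without nZVI array 2 the pharynx counts at 14 days were 2 higher and 0 lower. The pharynx sum at 0 days was 11.75 to 12.10 in nZVI soil, against 10.95 to 11.25 in control soil. Germline markers went the other way at 0 days, with 0 of 12 higher and 5 lower, and a sum of 12.02 to 12.46 in nZVI soil, against 12.70 to 12.87 in control soil. The part of these markers in the members' differences was not tested.

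Some members lie next to each other in the RefSeq gene order, and such neighbours did not always share a soil difference. grl-9 and grl-8 have no other protein-coding gene between them. grl-9 differed by 0.18, 1.99 and -0.04 at 0 days, 14 days and 4 months, and grl-8 by 1.15, 0.59 and 1.26. wrt-1 and wrt-10 are also neighbours, with 1.20, 0.08 and 0.17 for wrt-1 and 0.60, 0.64 and 0.55 for wrt-10. Closely related members may share hybridisation to a probe set, which the deposited values do not resolve.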

How the data were processed

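Per the labels' protocols, RNA of 18 whole-worm samples was labelled (WT PLUS kit) and each sample was run on its own C. elegans Gene 1.0 ST array. The authors deposited 1 log2 signal for each probe set and array. RMA and the Transcriptome Analysis Console are named in the submitters' processing notes, whose versions were not given there. RMA corrects background, equalises the distributions of arrays and summarises probes, which removes any shift common to most genes. Each of the 18 columns was matched to its sample by name.

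From these values, limma 3.58.1 in R 4.3.3 (lmFit, contrasts.fit, eBayes) was fitted with 1 coefficient per group over all 18 arrays. Tests were two-sided, with Benjamini-Hochberg adjustment over 28387 probe sets, and a call needed an adjusted p under 0.05. The 12 comparisons were the soils at each time, the 3 interactions and the times within each soil. No low-signal filter was set. Probe sets were named through GEO's platform annotation and RefSeq where 1 symbol was given. The members and lists were chosen with earlier results of these data known. Members given with all arrays were, by rule, those called without overlap: the 8 widest rises and 8 widest falls of each soil comparison, 4 and 4 of each time comparison and 4 of each interaction, with the arrays of the comparison concerned. The 5 brightest and 5 dimmest members, which the rule also names, are given as means and ranges. Other members named with values, such as wrt-7, wrt-8, wrt-9, wrt-10, grd-3, grd-5, grd-7, grd-9, grd-12, grl-2 and grl-18, and values at other times were chosen after their values were seen. Listed genes outside the family were named by the same calls, up to 3 in each direction per list and soil comparison, except hog-1 and qua-1, whose list is given whole, and ptc-1 and the 0-day value of ptc-3, chosen after their values were seen.

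The fit was checked on simulated data. The number of arrays, 3 per group, limits precision: the 95% intervals of the members' soil differences had half-widths of 0.31 to 1.27. To see whether replicate numbers pair the arrays, deviations from the group means were correlated between arrays of the same number. All 3 pairs exceeded 0.1 only for nZVI against control at 4 months (0.104 to 0.374) and for 4 months against 14 days in nZVI soil (0.108 to 0.209). The alternatives were a fit on the compared arrays only, an intensity trend, array weights, median centring, repeated quantile normalisation, brighter probe sets only, at least 2-fold, the replicate block and leaving out arrays. No sequences or coordinates were used here.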

Additional observations from a re-analysis of the deposited data

Results flagged for a closer look

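The soil difference, nZVI minus control, was called as changed between sampling times for 6 members by limma's interaction test. From 0 to 14 days 7.27% of the members were called, against 1.05% of all probe sets. With all arrays, the other shares were near those of all probe sets, at 5.45% against 4.32% from 0 days to 4 months, and 1.82% against 1.36% from 14 days to 4 months. Without nZVI array 2 at 14 days, the change from 14 days to 4 months was called upward for 1 member and downward for 13, against 1.99% of all probe sets. From 0 to 14 days the difference of grl-22 moved by 1.90 ± 0.40 (SE, limma adjusted p = 0.0277), that of grl-27 by 1.63 ± 0.36 (adjusted p = 0.038), that of grl-4 by 1.27 ± 0.29 (adjusted p = 0.0478) and that of grd-16 by -1.14 ± 0.24 (adjusted p = 0.0277). From 0 days to 4 months the difference of grl-4 moved by 1.33 ± 0.29 (adjusted p = 0.0171), that of grd-11 by -1.41 ± 0.37 (adjusted p = 0.0372) and that of grl-24 by -2.30 ± 0.60 (adjusted p = 0.0374). From 14 days to 4 months that of grd-16 moved by 1.85 ± 0.24 (adjusted p = 0.0032). Behind these stand soil differences of -0.48, 1.41 and 0.22 for grl-22 at 0 days, 14 days and 4 months, of -1.01, 0.61 and 0.23 for grl-27, of 1.04, 0.33 and -0.37 for grd-11, and of 2.75, 1.63 and 0.45 for grl-24. The grl-4 change to 4 months and the grd-16 change from 14 days held in every fit with 1 array left out, and both calls were lost without both narrow 4-month controls (adjusted p = 0.164 and 0.0669). With the replicate block the 14-day changes of grl-27 and grl-4 had adjusted p = 0.0519 and 0.0582. Without nZVI array 2 at 14 days the change from 0 to 14 days was called for 10 members, all upward, against 1.12% of all probe sets. Of the 4 changes from 0 to 14 days given above, only that of grl-22 was among them, and grd-16, grl-4 and grl-27 had adjusted p = 0.0503, 0.0512 and 0.0644.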

How the results depend on the processing

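Precision is limited by 3 arrays per group, by dim members and by the arrays that stood apart. For the members given with all arrays, 66 differences of 26 members were followed, and 26 of these differences kept their call under all settings. No difference changed direction. The soil and time differences were picked for not overlapping, so leaving out arrays could not have reversed those. The cause of the lost calls was not tested. Counts of called members, by setting, were as follows. With the compared arrays only, the soil comparison at 14 days called 5 members, its change from 0 to 14 days 2, nZVI 14 days against 0 days 2, nZVI 4 months against 14 days 6 and control 14 days against 0 days 10. With array weights the same comparisons called 41, 14, 22, 26 and 7 (against 24.1%, 4.42%, 13.4%, 25% and 30.5% of all probe sets), and the change of the soil difference from 14 days to 4 months 18 (against 13.4%). Without the narrow controls 1 and 3 at 4 months, the soil comparison at 4 months and both changes to 4 months called 0 (10, 11 and 6 at an unadjusted p under 0.05), and control 4 months against 0 days and against 14 days 2 each. At least 2-fold differences left 10 for nZVI 4 months against 0 days and 0 for control 14 days against 0 days, where 5 had an unadjusted p under 0.05. Among brighter probe sets only, nZVI 4 months against 14 days called 8 of 36. The replicate block left 2 for the change from 0 to 14 days (against 1.03% of all probe sets) and moved no other count by over 1.5 times. It gave 17, 23 and 10 for the soil comparisons at 0 days, 14 days and 4 months (against 17.9%, 10.1% and 9.06%).

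Leaving out 1 array gave 7 to 14 called members for the soils at 0 days, 7 to 34 at 14 days and 4 to 11 at 4 months. The change from 0 to 14 days gave 0 to 10 (where limma called 0, 10 to 12 had an unadjusted p under 0.05), that from 0 days to 4 months 1 to 5 and that from 14 days to 4 months 1 to 14. In nZVI soil, 14 days against 0 days gave 3 to 22, 4 months against 0 days 11 to 14 and 4 months against 14 days 10 to 24. In control soil the same comparisons gave 0 to 2 (4 or 5 at an unadjusted p under 0.05 where limma called 0), 4 to 10 and 7 to 13. The highest counts of 34, 10, 14, 22 and 24 were without nZVI array 2 at 14 days, and those of 11, 5, 10 and 13 without control 2 at 4 months. For the compared arrays only, and for most fits with 1 array left out, the share of all probe sets called is not given here. In those fits a change in the member count cannot be told from a change common to all genes.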
